A study of Mus musculus with 8 samples.

Results

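Nitric oxide and cyclic GMP signalling in the diabetic mouse heart is described here through 10 genes: Nos3, Nos1, Gch1, Ddah1, Ddah2, Cav1, Gucy1a1, Gucy1b1, Prkg1 and Pde5a. They were chosen by name, by a rule that uses no measured value, but with earlier results of these data known. All 10 are among the 55487 genes of the deposited count table. Enough reads for the test over all genes were present for 9 of them, and Nos1 was left out of that test by the filter on low counts. The data are gene-level read counts from hearts of db/db mice, a strain without a working leptin receptor that becomes obese and diabetic. Vehicle was given to the db/db mice behind 4 of the libraries and DIZE to those behind the other 4. DIZE is read here as diminazene aceturate, which the series names as an activator of angiotensin-converting enzyme II. Both groups carry the db/db genotype, so a lean or untreated heart is not analysed here, and the sources used here give no age, sex, dose or length of treatment. Whether every library is a different animal is not stated, and the p-values therefore cover only the spread among these samples, which may be technical.

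Nitric oxide is made from arginine by the nitric oxide synthases, which need the cofactor tetrahydrobiopterin, and it crosses into neighbouring cells and switches on soluble guanylyl cyclase. The cyclic GMP formed there activates a cyclic GMP-dependent protein kinase and is broken down by phosphodiesterases. In the heart the endothelial synthase sits largely in blood vessel lining and the neuronal synthase in heart muscle cells, and the pathway is known for relaxing vessels and for limiting growth of the muscle.

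None of the 9 tested genes changed in the quasi-likelihood test of edgeR (Benjamini-Hochberg adjusted p under 0.05), against 5 of all 13648 tested genes (0.0366%). DESeq2 and limma-voom with sample quality weights each called 1 of the 9, Prkg1 in both, where they called 4.44% and 3.27% of all tested genes. At an unadjusted edgeR p under 0.05 there were 2 of 9, Prkg1 and Cav1, both lower in DIZE, where 19.4% of all tested genes lay under that p. Prkg1 was the 1 of 9 whose groups separated, with each DIZE library below each vehicle library, and 5.26% of all tested genes had that pattern. With 9 genes, neither count sets them apart from the background. The log2 fold change, DIZE minus vehicle, was negative for 8 of the 9 (7 to 9 under the alternatives), with a median of -0.23 (-0.34 to -0.11 under the alternatives). Over all tested genes 51.8% were negative, with a median of -0.01.

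**Figure D1:**
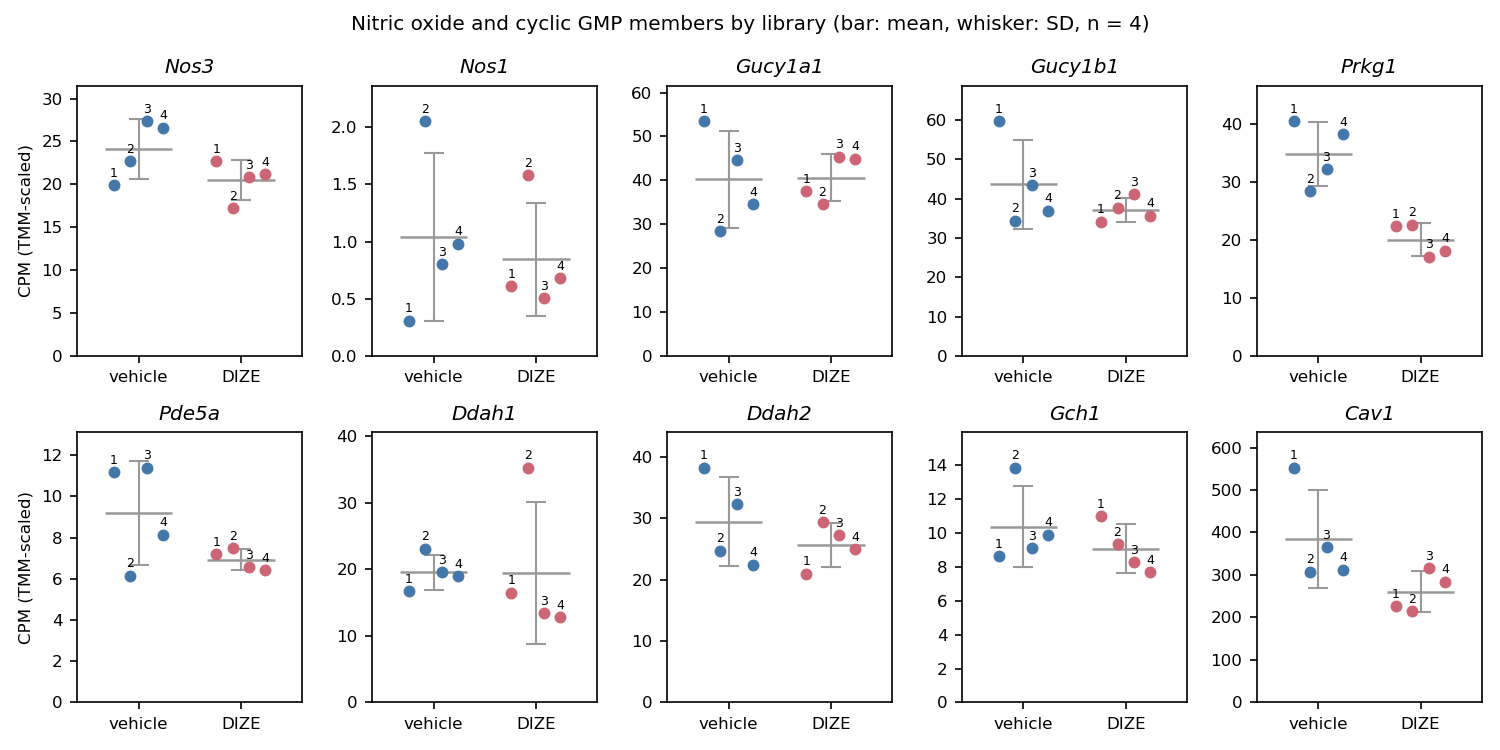
Level of each of the 10 genes in CPM (y axis, reads scaled to library depth) in the 4 vehicle (blue) and 4 DIZE (red) libraries, numbered by replicate, with the mean (bar) and SD (whisker). Prkg1 is the gene whose groups do not overlap, and vehicle 1 is the highest library for 5 of the 10 genes.

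Total counts ranged from 7447664 to 10161623 per library. Levels in CPM were obtained by dividing each count by the tested-gene total of its library, corrected by the TMM factor, and group values are mean ± SD over n = 4 libraries. Vehicle 1 had the highest summed markers of atrium (810 CPM, against 35.3 to 314 CPM in vehicle 2 to 4 and 13.6 to 130.5 CPM in DIZE), fibroblast (2368 CPM) and macrophage (497 CPM). Vehicle 2 carried liver transcripts at 1634 CPM, led by Alb, against at most 8.63 CPM in any other library. Heart muscle markers were abundant in every library, with a sum of 31723 to 52795 CPM in vehicle and 47394 to 54220 CPM in DIZE, and 9 of 10 lay higher in DIZE with 0 called. The part of these differences in the values below was not tested, and values without vehicle 1 or vehicle 2 are given where they matter. GC content also moved with the comparison: of 4 equal bins of tested genes, the one with the lowest GC (up to 44.8% in the longest transcript) had a median log2 fold change of -0.14, and the one with the highest (from 54.3%) had 0.18.

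Nos3 encodes the endothelial nitric oxide synthase (ENSMUSG00000028978, GRCm38 chromosome 5 from 24364810 to 24384474, plus strand). Nos3 stood at 19.9, 22.7, 27.4 and 26.6 CPM in vehicle 1 to 4 and at 22.7, 17.2, 20.8 and 21.2 CPM in DIZE 1 to 4. Vehicle 3 and 4 were the highest libraries and the groups overlapped. The means were 24.1 ± 3.48 and 20.5 ± 2.31 CPM, a log2 fold change of -0.23 ± 0.14 (SE; 95% interval -0.55 to 0.08; edgeR adjusted p = 0.382). Nos3 is GC-rich (58.2%), and after removal of the trend that each library showed on GC and length its log2 fold change was -0.49 (edgeR adjusted p = 0.0837). That value also missed the threshold. On the other strand, exons of Gm15587 overlap those of Nos3 over 1040 bases and exons of Atg9b over 294 bases. Nos3 has 4132 exon bases. Gm15587 and Atg9b had means of 0.453 and 1.43 CPM over all libraries. The strand setting of the counting is not stated, so the share of Nos3 reads that is uncertain is not known.

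The endothelial markers give the level of the cells that carry Nos3. Their sum was 1600 to 2236 CPM in vehicle and 1546 to 1908 CPM in DIZE, 9 of 12 lay lower in DIZE, the median log2 fold change was -0.11 and 0 were called by edgeR. Per 1000 CPM of these markers, Nos3 stood at 12.2 to 16.1 CPM in vehicle and at 10.9 to 12.8 CPM in DIZE, ranges that overlap. In bulk RNA, fewer cells of a type and less RNA per cell cannot be told apart. Vehicle 3 alone set the top of the endothelial range, and the other vehicle libraries reached at most 1654 CPM.

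Nos1 encodes the neuronal nitric oxide synthase (ENSMUSG00000029361, chromosome 5 from 117781032 to 117958840, plus strand). It had 3, 16, 6 and 10 reads in vehicle 1 to 4 and 5, 12, 5 and 7 reads in DIZE 1 to 4. Vehicle 2 and DIZE 2 were the highest libraries of their groups, and the groups overlapped over nearly their whole range. The exact Poisson 95% interval, which covers counting error only, was 0.063 to 0.900 CPM for vehicle 1 and 1.17 to 3.33 CPM for vehicle 2. Without a filter on low counts, edgeR gave a log2 fold change of -0.28 ± 0.51 (adjusted p = 0.826). Vehicle 1 and 2 differed by more than counting error, and few reads and spread between libraries were not told apart. Markers of neurons summed to 15.7 to 18.2 CPM in vehicle and 13.7 to 21.2 CPM in DIZE, above the level of Nos1 itself. Uchl1 made up most of this sum, with means of 14.7 CPM in vehicle and 15.1 CPM in DIZE. Chat and Snap25 had 0 reads in all 8 libraries. The part of neurons in the Nos1 reads was not tested. Per 1000 CPM of heart muscle markers, here summed without Myh6, Nos1 stood at 0.013 to 0.061 CPM in vehicle and 0.016 to 0.046 CPM in DIZE.

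Gch1 encodes GTP cyclohydrolase, the first and rate-limiting enzyme of tetrahydrobiopterin synthesis (ENSMUSG00000037580, chromosome 14 from 47153895 to 47189413, minus strand). Gch1 stood at 8.62, 13.9, 9.12 and 9.91 CPM in vehicle 1 to 4 and at 10.99, 9.34, 8.29 and 7.70 CPM in DIZE 1 to 4. Vehicle 2 was the highest library, and the others of both groups lay in 1 range. The log2 fold change was -0.19 ± 0.19 (95% interval -0.61 to 0.22; edgeR adjusted p = 0.602), and -0.03 without vehicle 2.

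Ddah1 and Ddah2 encode dimethylarginine dimethylaminohydrolases, which break down asymmetric dimethylarginine, an inhibitor of the synthases. Ddah1 (ENSMUSG00000028194, chromosome 3 from 145758675 to 145894277, plus strand) stood at 16.7, 23.1, 19.6 and 18.9 CPM in vehicle 1 to 4 and at 16.5, 35.3, 13.4 and 12.8 CPM in DIZE 1 to 4. DIZE 2 stood above all 7 other libraries, while DIZE 1, 3 and 4 lay below all 4 vehicle libraries. The means were 19.6 ± 2.64 and 19.5 ± 10.6 CPM, with a log2 fold change of -0.01 ± 0.29 (95% interval -0.66 to 0.63; edgeR adjusted p = 0.987). Without DIZE 2 it was -0.46 (adjusted p = 0.199). The sample titles come in 2 forms. The 4 libraries whose titles hold the letters db gave a log2 fold change of 0.38 (adjusted p = 0.727). The other 4 gave -0.55 (adjusted p = 0.0453, in a comparison of 2 against 2 libraries that called 1349 genes). DIZE 2 is among the titles with the letters db, and so is DIZE 1, which at 16.5 CPM lay just under vehicle 1 at 16.7 CPM. What the form of a title stands for is not stated by the labels, and the difference between the forms was not tested.

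Ddah2 (ENSMUSG00000007039, chromosome 17 from 35059035 to 35062095, plus strand) stood at 38.3, 24.8, 32.3 and 22.5 CPM in vehicle 1 to 4 and at 21.0, 29.3, 27.3 and 24.96 CPM in DIZE 1 to 4. Vehicle 1 was the highest and the DIZE libraries lay mostly inside the vehicle range. The log2 fold change was -0.20 ± 0.18 (95% interval -0.59 to 0.19; edgeR adjusted p = 0.563), -0.05 without vehicle 1 and -0.35 with the GC and length correction. The ratio of Ddah1 to Ddah2 reads was 0.437 to 0.933 in vehicle and 0.493 to 1.202 in DIZE, highest in DIZE 2.

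Cav1 encodes caveolin-1, the coat protein of caveolae, the membrane pits in which the endothelial synthase is held inactive (ENSMUSG00000007655, chromosome 6 from 17306335 to 17341452, plus strand). Cav1 stood at 552, 307, 366 and 313 CPM in vehicle 1 to 4 and at 227, 215, 316 and 284 CPM in DIZE 1 to 4. Vehicle 1 was far above the rest, and DIZE 3 lay above vehicle 2 and 4, so the groups overlapped. The means were 385 ± 115 and 261 ± 47.8 CPM, 1.48-fold apart, with a log2 fold change of -0.56 ± 0.20 (95% interval -0.998 to -0.13). The unadjusted p was 0.0162 and the edgeR adjusted p was 0.172, so Cav1 did not pass. Without vehicle 1 the log2 fold change was -0.33. Within the titles that hold the letters db it was -0.95 (adjusted p = 0.583), and within the others -0.18 (adjusted p = 0.366).

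Cav2, which encodes a partner of caveolin-1 in the same coat, lies next to Cav1 on the same strand (ENSMUSG00000000058, chromosome 6 from 17281185 to 17289115), with a gap of 17219 bases. Cav2 stood at 165, 84.8, 111 and 82.7 CPM in vehicle 1 to 4 and at 62.9, 72.2, 82.2 and 72.7 CPM in DIZE 1 to 4. Vehicle 1 was again the highest, and here the groups did not overlap, although vehicle 4 and DIZE 3 were close. The log2 fold change was -0.61 ± 0.21 (edgeR unadjusted p = 0.0124, adjusted p = 0.161). Cav1 and Cav2 have a low GC content (42.6% and 37.5%). With the GC and length correction the log2 fold change of Cav1 was -0.41 (edgeR adjusted p = 0.217). Per 1000 CPM of endothelial markers, Cav1 stood at 345 CPM in vehicle 1, at 164 to 189 CPM in vehicle 2 to 4 and at 128 to 166 CPM in DIZE. The 250 bases before the annotated starts of Cav1 and Cav2 are shown because their values lay lower side by side. They are from RefSeq on GRCm38.p6, read 5′ to 3′ on the plus strand, at chr6:17306085-17306334 and chr6:17307390-17307639 for the outer and inner start of Cav1 and at chr6:17280935-17281184 for Cav2. Capitals mark matches, on either strand, to the motifs searched: the TATA box TATAAA, the CCAAT box CCAAT, the GC box GGGCGG, the E-box CACGTG and the CArG box, none of which overlap here.
Cav1 promoter, outer start: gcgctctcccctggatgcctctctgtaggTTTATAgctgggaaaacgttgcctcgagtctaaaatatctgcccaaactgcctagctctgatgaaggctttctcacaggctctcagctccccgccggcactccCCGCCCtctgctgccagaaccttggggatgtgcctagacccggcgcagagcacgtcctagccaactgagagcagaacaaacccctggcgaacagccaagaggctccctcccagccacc
Cav1 promoter, inner start: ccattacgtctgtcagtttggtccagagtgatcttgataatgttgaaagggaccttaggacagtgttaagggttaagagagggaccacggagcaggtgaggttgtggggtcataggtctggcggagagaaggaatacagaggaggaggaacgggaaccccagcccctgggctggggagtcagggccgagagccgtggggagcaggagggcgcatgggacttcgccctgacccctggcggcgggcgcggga
Cav2 promoter: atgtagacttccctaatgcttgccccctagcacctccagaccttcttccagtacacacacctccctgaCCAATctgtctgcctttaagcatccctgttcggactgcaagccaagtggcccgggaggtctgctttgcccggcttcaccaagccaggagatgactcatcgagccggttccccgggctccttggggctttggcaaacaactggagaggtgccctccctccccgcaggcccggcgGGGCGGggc
The outer Cav1 window held a TATA box and a GC box, each on the minus strand, the inner Cav1 window held none of the motifs, and the Cav2 window a CCAAT box and a GC box on the plus strand. Over 32851 RefSeq windows of the same 250 bases, 12.4% held the TATA box, 33.8% the CCAAT box, 32.7% the GC box, 6.0% the E-box and 1.5% the CArG box. A window was at hand for 9 of the 10 members.

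Gucy1a1 and Gucy1b1 encode the alpha and beta subunits that together form soluble guanylyl cyclase, the receptor of nitric oxide. They lie in tandem on the minus strand of chromosome 3, Gucy1b1 (ENSMUSG00000028005) from 82032006 to 82074689 and Gucy1a1 (ENSMUSG00000033910) from 82092427 to 82145789, 17737 bases apart. Gucy1a1 stood at 53.5, 28.3, 44.5 and 34.5 CPM in vehicle 1 to 4 and at 37.5, 34.6, 45.4 and 45.0 CPM in DIZE 1 to 4. Gucy1b1 stood at 59.7, 34.4, 43.4 and 37.0 CPM in vehicle 1 to 4 and at 34.2, 37.8, 41.2 and 35.7 CPM in DIZE 1 to 4. Both subunits had the same order of the vehicle libraries, 1 highest, then 3, 4 and 2, and for both the DIZE libraries lay within or just under the vehicle range. The log2 fold change was 0.01 ± 0.19 for Gucy1a1 (95% interval -0.40 to 0.43; edgeR adjusted p = 0.975) and -0.23 ± 0.17 for Gucy1b1 (95% interval -0.60 to 0.14; adjusted p = 0.470). The sign of Gucy1a1 was not stable, with 0.18 without vehicle 1 and -0.12 without vehicle 2, and that of Gucy1b1 was negative throughout, at -0.04 without vehicle 1. The ratio of Gucy1a1 to Gucy1b1 reads was 0.825 to 1.02 in vehicle and 0.916 to 1.26 in DIZE, with 3 of 4 DIZE libraries above the vehicle range. Scaled per kb of exon, Gucy1a1 stood at 0.465 to 0.577 of Gucy1b1 in vehicle and at 0.516 to 0.710 in DIZE.

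Prkg1 encodes the cyclic GMP-dependent protein kinase I, which carries the signal onward by phosphorylating calcium-handling and contractile proteins (ENSMUSG00000052920, chromosome 19 from 30564489 to 31765033, minus strand). Prkg1 stood at 40.4, 28.3, 32.2 and 38.2 CPM in vehicle 1 to 4 and at 22.3, 22.6, 17.1 and 18.1 CPM in DIZE 1 to 4, from 221 to 394 reads in vehicle and 169 to 186 reads in DIZE. Every DIZE library lay below every vehicle library, with vehicle 2 nearest to the DIZE group. The means were 34.8 ± 5.52 and 20.05 ± 2.85 CPM, 1.73-fold apart, with a log2 fold change of -0.80 ± 0.15 (95% interval -1.13 to -0.47). Its unadjusted p of 0.000236 ranked 41 of 13648, and the edgeR adjusted p was 0.0786, which missed the threshold of 0.05.

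The direction of Prkg1 was the same under 22 of 22 alternatives, with adjusted p from 0.000836 to 0.583, and 5 of them put it past the threshold. These were DESeq2 (log2 fold change -0.80, adjusted p = 0.000836), limma-voom with sample quality weights (-0.86, adjusted p = 0.0271), edgeR with no filter on low counts (-0.78, adjusted p = 0.00526), edgeR without vehicle 2 (-0.88, adjusted p = 0.0322) and edgeR on the titles without the letters db (-1.001, adjusted p = 0.00598). The titles with the letters db gave -0.61 (adjusted p = 0.583). Prkg1 has a low GC content (41.5%), and with the GC and length correction its log2 fold change was -0.58 (adjusted p = 0.0759). With the level of the atrial gene Myl7 as a covariate it was -0.79 (adjusted p = 0.132), and without vehicle 1, -0.72 (adjusted p = 0.0702).

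**Figure D2:**
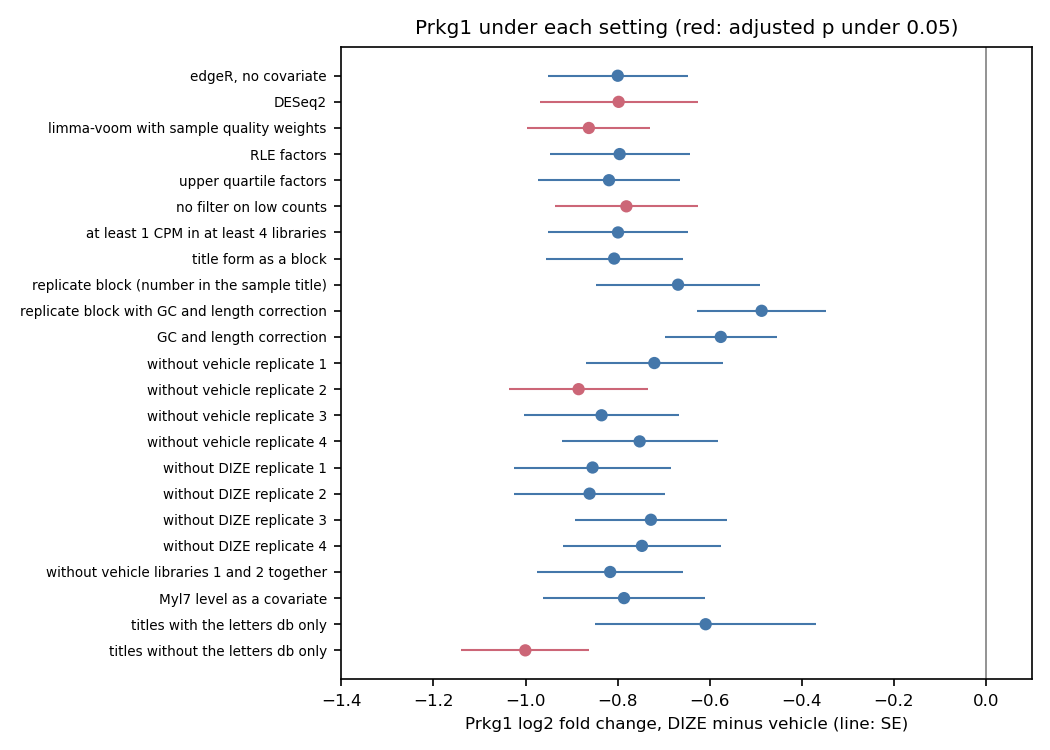
Prkg1 log2 fold change, DIZE minus vehicle (x axis), with its SE (line) in edgeR without covariates (top) and under each of 22 alternatives, red where the adjusted p lies under 0.05. Every value lies between -1.001 and -0.49, and 5 of the alternatives are red.

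Prkg1 is known for its part in smooth muscle, so markers of smooth muscle cells and pericytes are given beside it. Their sum was 1663 to 2066 CPM in vehicle and 1603 to 1758 CPM in DIZE, 6 of 9 tested lay lower with 0 called, and the median log2 fold change was -0.06. Rgs5 weighed most in this sum, with means of 989 CPM in vehicle and 870 CPM in DIZE, and the markers did not move together. The log2 fold change was -0.47 for Cnn1, -0.35 for Abcc9, -0.33 for Myh11, -0.19 for Rgs5, -0.06 for Kcnj8 and -0.02 for Acta2. It was 0.26 for Cspg4, 0.32 for Pdgfrb and 0.55 for Notch3. The 10th marker, Tagln, had only 1 to 7 reads per library, while Myh11 had 386 to 877 reads. Among fibroblast markers 7 of 8 lay lower (median -0.21) and among macrophage markers 6 of 7 (median -0.44), again with 0 called, and their part in the Prkg1 values was not tested. Cstf2t, a gene inside an intron of Prkg1 on the other strand, shares no exon bases with it and had a mean of 44.5 CPM over all libraries. Cstf2t stood at 41.4 to 54.6 CPM in vehicle and at 31.4 to 54.5 CPM in DIZE, without the separation seen for Prkg1.

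RefSeq annotates starts of Prkg1 that lie far apart, and the 250 bases before each are shown because this gene had the largest log2 difference of the 9 tested. They are from GRCm38.p6, at chr19:31765034-31765283 and chr19:31664371-31664620, read 5′ to 3′ on the minus strand, with capitals for matches to the same motifs.
Prkg1 promoter, outer start: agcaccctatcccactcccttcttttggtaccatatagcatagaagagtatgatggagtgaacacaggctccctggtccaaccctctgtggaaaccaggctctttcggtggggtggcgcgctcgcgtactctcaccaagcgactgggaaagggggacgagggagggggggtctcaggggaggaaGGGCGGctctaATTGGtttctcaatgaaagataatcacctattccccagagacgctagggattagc
Prkg1 promoter, inner start: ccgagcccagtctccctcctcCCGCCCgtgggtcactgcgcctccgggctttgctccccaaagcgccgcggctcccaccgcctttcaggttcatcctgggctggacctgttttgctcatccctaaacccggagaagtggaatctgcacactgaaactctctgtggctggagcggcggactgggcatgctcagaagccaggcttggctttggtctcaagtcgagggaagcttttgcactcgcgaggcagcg
The outer window held a GC box and, on the opposite strand, a CCAAT box. The inner window held a GC box on the opposite strand. Neither held a TATA box, E-box or CArG box. The counts are per gene, so transcripts from these starts cannot be told apart.

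Pde5a encodes the phosphodiesterase that breaks down cyclic GMP and is the target of sildenafil (ENSMUSG00000053965, chromosome 3 from 122728947 to 122859374, plus strand). Pde5a stood at 11.2, 6.16, 11.4 and 8.14 CPM in vehicle 1 to 4 and at 7.20, 7.50, 6.57 and 6.44 CPM in DIZE 1 to 4. The DIZE libraries lay close together, under vehicle 1, 3 and 4 and above vehicle 2. The means were 9.22 ± 2.53 and 6.93 ± 0.508 CPM, with a log2 fold change of -0.42 ± 0.21 (95% interval -0.87 to 0.04; edgeR adjusted p = 0.297). Without vehicle 2 it was -0.56 (adjusted p = 0.114) and without vehicle 3 it was -0.30 (adjusted p = 0.497).

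**Figure D3:**
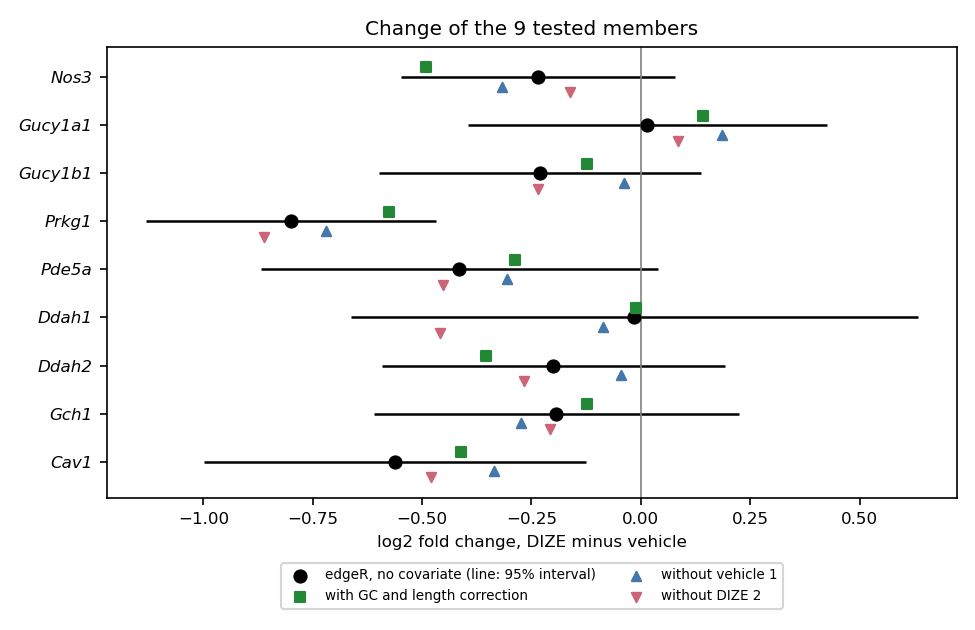
Log2 fold change, DIZE minus vehicle (x axis), of the 9 tested genes with the 95% interval (line), and the same value with the GC and length correction (squares), without vehicle 1 (upward triangles) and without DIZE 2 (downward triangles). The intervals of Prkg1 and Cav1 lie below 0 and the others span it, and Ddah1 moves to -0.46 without DIZE 2.

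Compared per kb of exon, the 10 genes covered a wide range of levels. In vehicle, Cav1 had the highest mean, 112 CPM per kb, followed by Ddah2 with 18.5 and Gucy1b1 with 11.1 CPM per kb. Nos3 (5.84), Gucy1a1 (5.77) and Ddah1 (4.92 CPM per kb) formed a middle tier whose neighbours overlapped between libraries, as did Ddah2 and Gucy1b1. Prkg1 (3.20), Gch1 (1.66) and Pde5a (0.938 CPM per kb) followed, each with all vehicle libraries below those of the gene before it. Nos1 was last at 0.093 CPM per kb, also without overlap with Pde5a. In DIZE the order was the same except that Gucy1a1 (5.83 CPM per kb) stood above Nos3 (4.96).

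**Figure D4:**
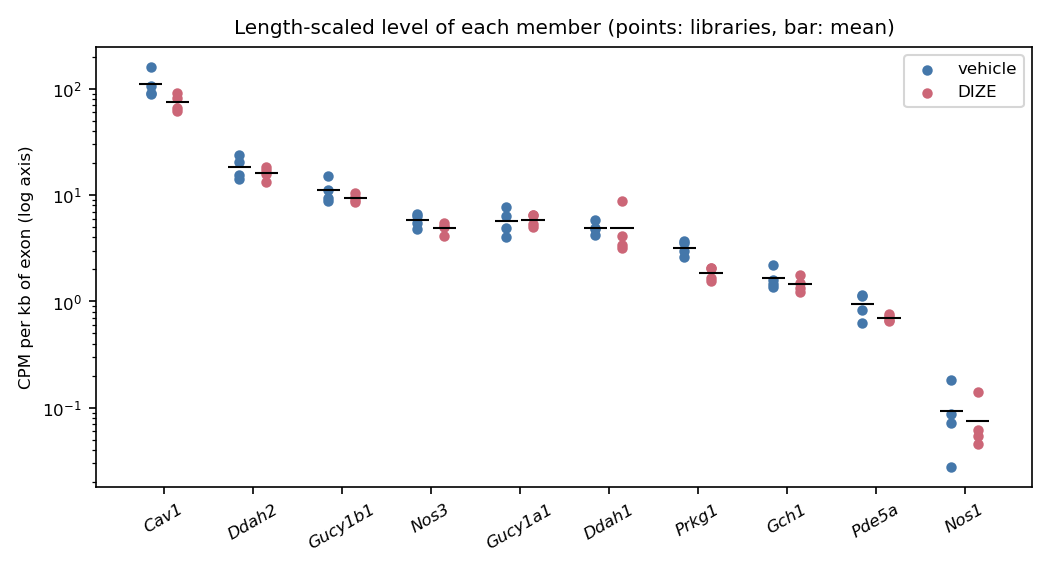
Level of each gene per kb of exon (CPM per kb, log y axis) in the vehicle (blue) and DIZE (red) libraries, with the group mean (bar), ordered by the vehicle mean. Cav1 is at the top with 112 CPM per kb and Nos1 at the bottom with 0.093 CPM per kb in vehicle.

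The other genes of the pathway came from 8 lists with 72 genes in the table, of which 63 were tested. By edgeR 0 of the 63 changed, 15 had an unadjusted p under 0.05 (13 lower and 2 higher) where 19.4% of all tested genes did, and 28 lay higher and 35 lower with a median log2 fold change of -0.04. DESeq2 called 3, Slc7a2, Dynll1 and Hbb-bt, all lower, and limma-voom with sample quality weights called Dynll1, where these tools called 4.44% and 3.27% of all tested genes. None of these counts sets the lists apart from the background. Left untested by the filter on low counts were Bdkrb2, Arg1, Arg2, Agxt2, Gucy1a2, Gucy1b2, Prkg2, Kcnma1 and Trpc6. Of these, Arg1 and Agxt2 stood at 48.2 and 6.28 CPM in vehicle 2, the library with the liver transcripts. In the other libraries Arg1 reached at most 0.687 CPM and Agxt2 had no reads.

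Among regulators of the synthases 6 of 14 lay higher and 8 lower, with a median of -0.04. Dynll1, a dynein light chain that binds the neuronal synthase, stood at 50.3 to 60.5 CPM in vehicle and 25.1 to 44.1 CPM in DIZE (log2 fold change -0.64 ± 0.16, edgeR adjusted p = 0.102). Akt1, the kinase that activates the endothelial synthase by phosphorylation, stood at 195 to 243 CPM in vehicle and 253 to 308 CPM in DIZE (0.35 ± 0.11, adjusted p = 0.156). The groups did not overlap for either gene. Calm3, a calmodulin gene, had 0.24 ± 0.11 (adjusted p = 0.277), and Nostrin, a protein that moves the endothelial synthase off the membrane, had -0.64 ± 0.32 (adjusted p = 0.291) with groups that overlapped.

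Arginine supply and use split 3 higher and 3 lower, with a median of -0.37. Slc7a2, a transporter of cationic amino acids, stood at 18.6, 19.9, 7.91 and 9.22 CPM in vehicle 1 to 4 and at 4.61 to 6.35 CPM in DIZE (-1.37 ± 0.30, edgeR adjusted p = 0.0888). The groups did not overlap, and the vehicle group itself fell into a higher and a lower pair, the higher pair being vehicle 1 and 2, whose titles hold the letters db. Slc7a1, the other tested transporter of this kind, had 0.33 ± 0.20 (adjusted p = 0.379). Ass1 and Asl, which rebuild arginine from citrulline and are abundant in liver, stood at 94.4 and 23.6 CPM in vehicle 2, the library with the liver transcripts. In the other 7 libraries Ass1 stood at 4.93 to 6.59 CPM and Asl at 5.36 to 7.39 CPM, and their log2 fold changes were -2.25 ± 1.14 and -0.79 ± 0.42 with vehicle 2 included.

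For tetrahydrobiopterin 3 of 5 genes lay higher (median 0.03), and the smallest adjusted p was that of Gchfr, the feedback regulator of Gch1 (-0.50 ± 0.39, edgeR adjusted p = 0.506). Qdpr (0.13 ± 0.13), an enzyme of cofactor recycling, and Pts (0.03 ± 0.13), an enzyme of its synthesis, were near 0. Of the natriuretic peptide receptors, which form cyclic GMP or clear the peptides at the cell surface, Npr2 had 0.24 ± 0.19, Npr1 0.16 ± 0.18 and Npr3 -0.02 ± 0.20, a median of 0.16.

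Cyclic nucleotide phosphodiesterases other than Pde5a lay lower for 9 of 12, with a median of -0.21 against -0.01 for all tested genes. Their summed level was not lower, at 355 to 446 CPM in vehicle and 375 to 455 CPM in DIZE. The most abundant, Pde3a and Pde1c, had 0.37 ± 0.19 and -0.03 ± 0.12 (edgeR adjusted p = 0.308 and 0.925). An unadjusted edgeR p under 0.05 was found for 4, all lower, where 19.4% of all tested genes lay under that p. Pde10a, which breaks down cyclic AMP and cyclic GMP, stood at 2.95 to 6.44 CPM in vehicle and 2.63 to 3.03 CPM in DIZE (-0.86 ± 0.25, edgeR adjusted p = 0.128), and passed without vehicle 2 (-1.05, adjusted p = 0.0388). Pde1a, activated by calcium and calmodulin, stood at 9.75 to 20.7 CPM in vehicle and 7.68 to 10.9 CPM in DIZE (-0.64 ± 0.22, adjusted p = 0.170). Vehicle 2 was the library that brought both genes into overlap. Pde11a (-0.98 ± 0.37) and Pde3b (-0.52 ± 0.22), the latter inhibited by cyclic GMP, also overlapped between groups.

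Partners and substrates of the kinase lay higher for 5 of 8, with a median log2 fold change of 0.06. Itpr1, a calcium release channel of internal stores, stood at 43.7 to 89.2 CPM in vehicle and 41.3 to 50.0 CPM in DIZE (-0.50 ± 0.19, edgeR adjusted p = 0.185). Vasp, a phosphorylation target on actin filaments, had 0.25 ± 0.13 (adjusted p = 0.314), Ppp1r12a, the targeting subunit of myosin phosphatase, -0.19 ± 0.11 (adjusted p = 0.368) and Rgs2, a regulator of G protein signalling, 0.39 ± 0.26 (adjusted p = 0.429).

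Caveola components other than Cav1 split 4 higher and 4 lower, with a median of -0.01. Beside Cav2, the coat gene Cavin3 had -0.44 ± 0.19 (edgeR adjusted p = 0.235), while Pacsin3, a membrane-bending protein of muscle, stood at 122 to 165 CPM in vehicle and 173 to 203.5 CPM in DIZE (0.31 ± 0.12, adjusted p = 0.199). Cavin4, the muscle form of the cavins, had 0.14 ± 0.14 (adjusted p = 0.622). Genes that remove nitric oxide lay lower for 5 of 7, with a median of -1.72, and this value comes from the 4 globin genes, Hbb-bt, Hba-a2, Hba-a1 and Hbb-bs (-2.02, -1.82, -1.72 and -1.79, adjusted p from 0.101 to 0.177). The globins are also markers of red blood cells, whose summed markers stood at 101 to 210 CPM in vehicle and 8.95 to 78.4 CPM in DIZE, and reads of near-identical globin copies may be split between them.

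**Figure D5:**
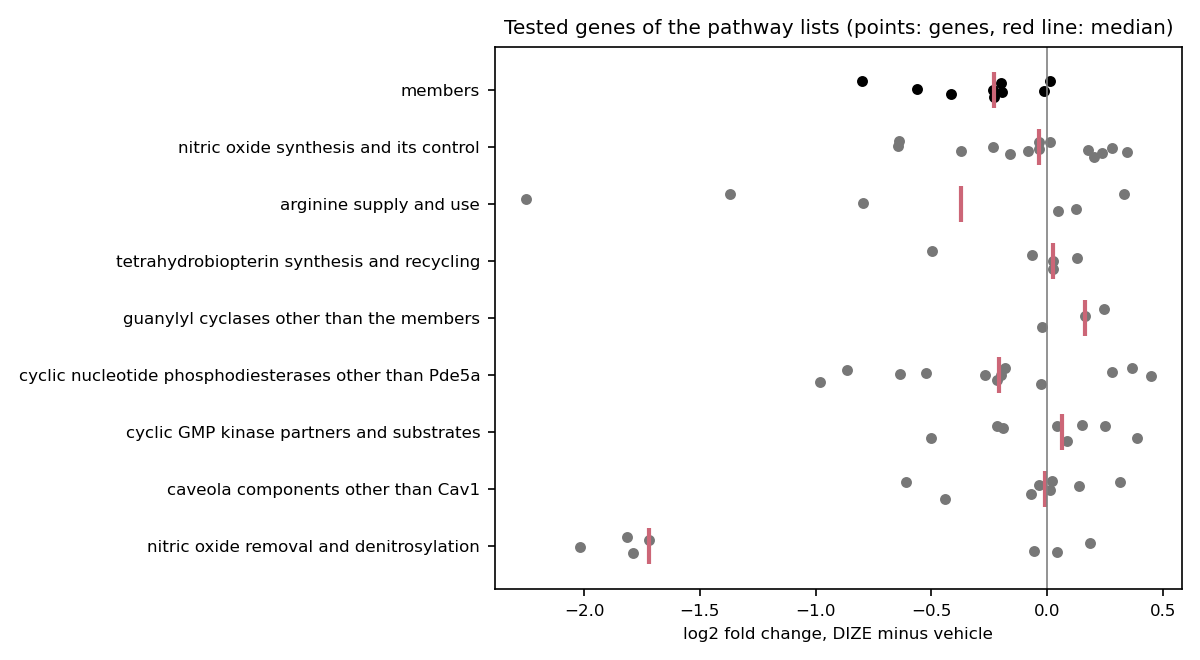
Log2 fold change, DIZE minus vehicle (x axis), of each tested gene (points) of the members (black) and of the 8 pathway lists (grey), with the median of each list (red line). The members have a median of -0.23, the phosphodiesterases -0.21 and the list with the globins -1.72, while the other lists lie between -0.37 and 0.16.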

How the data were processed

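Heart RNA of db/db mice, in 4 vehicle and 4 DIZE libraries as the labels group them, was poly(A)-selected, made into stranded libraries and sequenced as read pairs, per the labels' protocols. Reads were processed with mm10, STAR 2.7.3, HTSeq 0.6.1p1, R 4.1 and edgeR, per the submitters' processing notes. For annotation release and strand setting, no statement is given in the sources used here. The authors deposited raw counts, whole reads per Ensembl gene, for 55487 genes, with 0 columns from other samples. Symbols were matched for 55141 genes and not for 346, and positions, lengths and GC content came from GENCODE on GRCm38, the assembly of mm10.

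All else was computed here. Every gene was tested with edgeR 4.0.16 (R 4.3.3; quasi-likelihood, robust, two-sided, TMM factors, no covariate; filterByExpr with minimum count 10 and minimum total 15), with Benjamini-Hochberg adjustment over all 13648 genes tested and a threshold of 0.05, after the procedure was tested on simulated data. Confidence intervals are at 95%. The most alike libraries differed by a chi-square of 5.06 per degree of freedom, so no library was counted as a copy of another. Title numbers did not pair the samples.

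All 10 members are named, with up to 4 tested genes per pathway list by smallest p and genes that overlap a member, and 1 gene that this rule names is not reported here. The members, the 8 pathway lists, the 11 marker lists and the motifs were chosen with earlier results of these data known. The naming of Hsp90aa1, of Pde3a and Pde1c, of untested pathway genes and of markers by level was done after their values were seen. There were 18 alternatives set at the start: DESeq2 1.42.0, limma 3.58.1 (voom with sample quality weights), RLE and upper quartile factors, 2 other filters, the title form as a block, the title number as a block with and without a GC and length correction, that correction alone, and each library left out. Another 4 were chosen after seeing the data: without vehicle 1 and 2 together, Myl7 as a covariate, and each title form alone. Skeletal muscle markers summed to 1.86 to 3.59 CPM in vehicle and 1.71 to 3.51 CPM in DIZE (Myh4 at 0 in all), adipocyte markers to 0.134 to 8.93 and 0.101 to 1.56 CPM, and liver markers to at most 3.54 CPM in DIZE. Figures were drawn with matplotlib 3.10.9.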

Additional observations from a re-analysis of the deposited data

Results flagged for a closer look

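Over 120 sets of 4 libraries, 13 had 1 library far from the other 3 (Dixon's criterion for 4 values), where chance gives about 1 in 20. Members account for 2 of them, both in DIZE 2: Ddah1 stood at 35.3 CPM, against at most 16.5 CPM in the rest of its group, and Nos1 at 1.58 CPM, against at most 0.683 CPM. In the same library Pde3b stood at 6.58 CPM, against at most 4.24 CPM.

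Vehicle 1 stood apart in 5 of the sets. Its Cav1 level per 1000 CPM of endothelial markers was 345 CPM, its fibroblast markers summed to 2368 CPM, Dynll1 stood at 60.5 CPM, Pts at 71.6 CPM, and Npr2 at 51.5 CPM where the other vehicle libraries reached at least 95.5 CPM.

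Vehicle 2 stood apart in 3 sets: Ass1 at 94.4 CPM, Asl at 23.6 CPM and the summed liver markers at 1634 CPM. The last 2 sets were the endothelial markers of vehicle 3, with a sum of 2236 CPM, and Npr1 in DIZE 1, at 41.4 CPM against at most 25.8 CPM in the other DIZE libraries.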

How the results depend on the processing

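Of the 9 tested members, Nos3, Gucy1b1, Prkg1, Pde5a, Ddah2, Gch1 and Cav1 stayed negative under all 22 alternatives. The number of members called moved from 0 to 1 with DESeq2, limma-voom with sample quality weights or no filter on low counts, to 2 (Prkg1 and Ddah1) in the titles without the letters db, and lay between 0 and 1 with each library left out in turn (1 without vehicle 2). The number of all genes called moved from 5 to 606 with DESeq2, 446 with limma-voom, 386 with no filter, 9 with the title form as a block, 46 with the GC and length correction, 65 without vehicle 1 and 2 together, 0 with Myl7 as a covariate, 0 in the titles with the letters db and 1349 in the others, and lay between 0 and 240 with each library left out (240 without vehicle 2, 9 without vehicle 1). Pathway genes called moved from 0 to 3 with DESeq2, 1 with limma-voom, 2 (Dynll1 and Slc7a2) with no filter and 4 (Dynll1, Hsp90aa1, Pde10a and Pde1a) in the titles without the letters db, and lay between 0 and 1 with each library left out.

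The sign of Gucy1a1 turned with upper quartile factors (-0.0033) and in the titles with the letters db (-0.18), and its log2 fold change ran from -0.12 to 0.18 with each library left out. Ddah1 turned with no filter (0.0044), without vehicle 1 and 2 together (0.0058) and in the titles with the letters db (0.38), and ran from -0.46 to 0.15 with each library left out. The cause of these moves was not tested.

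Deviations of same-numbered libraries had correlations of -0.14 to 0.02, and those of differently numbered libraries -0.21 to 0.14. The number 4 repeats within each group, so the numbers define no unique pairs, and what they stand for was not tested. With the replicate block on the title number, 0 genes were called (1 with the GC and length correction as well), Gucy1a1 had -0.086, Ddah1 0.10 (0.099 with the correction) and Prkg1 -0.67. Vehicle 4 and DIZE 3 have numbers found in no other library, so this fit took the group difference from the remaining libraries only.

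With 4 libraries a group and 7447664 to 10161623 reads each, Nos1 had only 3 to 16 reads per library, and its libraries also spread beyond counting error. Intervals such as -0.66 to 0.63 for Ddah1 also leave sizeable differences undetected, and a p that misses the threshold does not show equal levels.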
